A study of Mus musculus with 15 samples.

Results

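Of 48 genes that matched the name pattern for proteasome genes (Psma, Psmb, Psmc, Psmd, Psme, Psmf or Psmg followed by a number) among 55536 genes in the tables, 46 had a mean normalized count of 10 or more over the 15 samples. Of these, 43 encode constitutive subunits, assembly chaperones, activators or an inhibitor, and 3 encode the immune subunits Psmb8, Psmb9 and Psmb10. The 43 are called constitutive genes below for short, though they take in Psme1 and Psme2, which form an interferon-inducible cap. Psma8, a testis subunit (mean 1.47), and Psmb11, a thymus subunit (mean 0.267), fell below the limit, and the lowest gene above it was Psmg3, with a mean of 59. The name pattern also takes in 3 chaperones of the regulatory particle (Psmd5, Psmd9 and Psmd10) and leaves out partners with other names, such as Pomp, which were examined as a separate list.

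The RNA came from skeletal muscle of 15 male mice, aged 2 months, and was sequenced after poly(A) selection: 5 wild type controls, 5 mice with the genotype PdgfrB Knock Out (knockout below) and 5 with PdgfrB D489V (D489V below). The series describes the knockout as specific to cells that express myogenin, a factor of differentiating muscle cells, and D489V as a constitutively active form of the receptor in the same cells. By that description the other cells of the muscle would keep their own Pdgfrb, which was not tested here. The RNA is of the whole tissue, in which fewer cells of a type and less RNA per cell cannot be told apart. The labels name no muscle, strain, litter or batch. The comparisons asked whether loss or activation of this growth factor receptor went with different RNA levels of the proteasome genes.

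The proteasome degrades proteins tagged with ubiquitin. Its 20S core is a barrel of alpha and beta rings, with the proteolytic sites inside on 3 beta subunits, and the 19S regulatory particle on its end binds, unfolds and feeds in the substrate. In skeletal muscle this pathway breaks down myofibrillar proteins, and its genes are known to rise together in several forms of atrophy. Interferon induces the immune subunits, which replace the constitutive catalytic subunits and change the peptides made for antigen presentation.

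Values are the authors' normalized gene counts, given as whole numbers. They summed to 29815559 to 36489777 per sample, with 20799 to 23783 genes above 0. Pdgfrb, the targeted gene, was at 1848, 1673, 1720, 1716 and 1811 in controls 1 to 5, at 1475, 1628, 1138, 1339 and 958 in knockouts 1 to 5 and at 820, 828, 1062, 849 and 970 in D489V mice 1 to 5. All knockout and D489V samples lay below all controls, and the limma test gave a log2 difference of -0.45 in knockout (adjusted p = 0.2941) and -0.96 in D489V (adjusted p = 0.001681). Compared directly, Pdgfrb was higher in knockout than in D489V by 0.51 (limma adjusted p = 0.02584). Which cells of the muscle these differences lay in was not tested. The 8 muscle fibre markers together held 14.32 to 18.51% of all normalized counts of a sample. Within that sum, Myh7 ran from 1581 (knockout 1) to 94986 (knockout 3) and Myh2 from 28727 (D489V 2) to 138207 (knockout 3). Lymphocyte markers set 4 libraries apart: the sum of 10 such genes was 6962 in control 5 and 2119, 6067 and 1550 in knockouts 3, 4 and 5, against 77 to 410 in the other libraries. Beside this, Cd3d, which encodes a CD3 chain of the T-cell receptor complex, was at 0 in control 3 and D489V 3, and Ms4a1, which encodes the B-cell antigen CD20, was at 0 in control 4 and knockout 1.

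Most constitutive proteasome genes varied less within a group than the median gene, though no background matched for level was made. Together the 46 genes held 0.384 to 0.433% of all normalized counts of a sample, with group means of 0.402% ± 0.0188 in controls, 0.412% ± 0.0179 in knockout and 0.399% ± 0.0187 in D489V (SD, n = 5 each). The scatter between samples of a group, as the SD of log2(normalized count + 1), had a median of 0.139 over the 43 constitutive genes, against 0.271 over the 15389 genes with a mean of 10 or more and 0.215 over the 10805 genes with a mean of 100 or more. Psmc4, an ATPase of the regulatory particle, varied least, with an SD of 0.0635 and normalized counts between 3163 and 3705 in all 15 samples. Psmg3 and Psme4 varied most of the constitutive genes, with SDs of 0.407 and 0.385. The 3 immune subunits had SDs of 0.259 (Psmb10), 0.588 (Psmb8) and 0.661 (Psmb9).

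Levels between genes were compared as normalized counts per kb of merged exon. The ATPases Psmc5, at 3339, and Psmc3, at 3011, and the alpha subunit Psma6, at 2777, were the highest, and the chaperone Psmg3 was the lowest, at 20.4. Psmc5, on chromosome 11 (GRCm38, 106256154 to 106263120, plus strand), is one of the 6 ATPases that unfold the substrate. Its normalized counts were 4606, 5076, 4312, 4656 and 4109 in controls, 4933, 4509, 4801, 4490 and 4824 in knockout and 5121, 4833, 4674, 4405 and 4468 in D489V, so that the 3 groups overlapped widely. Psmg3, which with Psmg4 helps build the alpha ring, was at 86, 64, 53, 63 and 61 in controls, at 73, 39, 42, 58 and 45 in knockout and at 74, 58, 87, 50 and 32 in D489V. The beta subunits lay above the helpers: the 7 constitutive beta subunits ran from 564 (Psmb1) to 2289 (Psmb4) per kb, the 3 chaperones of the regulatory particle from 72.8 (Psmd5) to 221 (Psmd10), the 4 chaperones of the core from 20.4 to 310 (Psmg2), and the inhibitor Psmf1 was at 76.9. With the longest transcript as the gene length, Psmb6 was the highest, at 4383, and Psmg3 stayed the lowest, at 24.6.

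**Figure D1:**
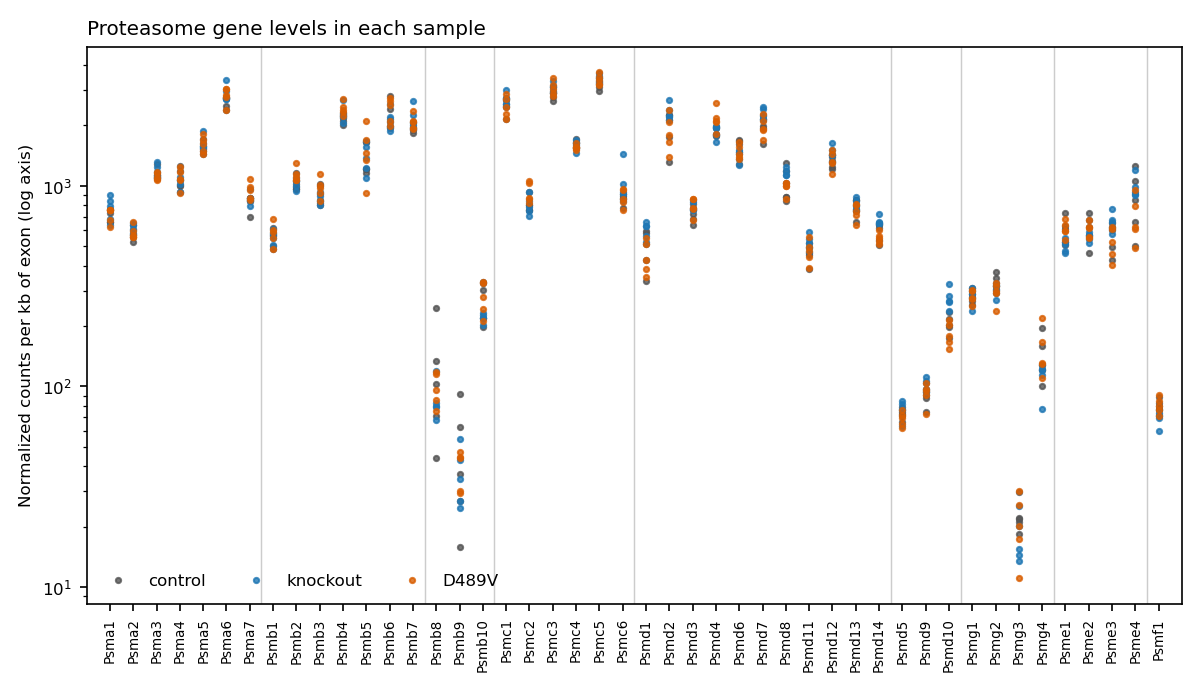
Normalized counts per kb of merged exon (log axis) of the 46 proteasome genes in each of the 15 samples, coloured by group and ordered by role from the alpha ring to the inhibitor. The 7 constitutive beta subunits sit above the chaperones in every sample, and the immune subunits Psmb8 and Psmb9 spread the most, with control samples at both ends.

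Promoters of 39 of the 46 genes were in the RefSeq table (GRCm38.p6, 250 bases before to 50 after the start), and 4 are shown without their exon parts. Psmb5 and Psmb6 are shown since they hold the antioxidant response element, searched as TGACNNNGC on both strands, to which the proteasome regulator Nfe2l1 can bind. Psmd10 and Psmd14 are shown since they are the genes called below whose groups did not overlap. The capitals mark matches to this element, to the CCAAT box (CCAAT, which reads ATTGG on the other strand) and to the site of nuclear respiratory factor 1 (GCGC and TGCGC with any 1 base between them).
Psmb5, chr14:54618023-54618245 (minus strand): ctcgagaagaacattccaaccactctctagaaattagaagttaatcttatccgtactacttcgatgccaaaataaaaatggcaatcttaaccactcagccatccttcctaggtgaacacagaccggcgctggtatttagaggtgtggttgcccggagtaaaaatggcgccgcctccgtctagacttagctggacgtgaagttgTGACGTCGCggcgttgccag
Psmb6, chr11:70525107-70525356 (plus strand): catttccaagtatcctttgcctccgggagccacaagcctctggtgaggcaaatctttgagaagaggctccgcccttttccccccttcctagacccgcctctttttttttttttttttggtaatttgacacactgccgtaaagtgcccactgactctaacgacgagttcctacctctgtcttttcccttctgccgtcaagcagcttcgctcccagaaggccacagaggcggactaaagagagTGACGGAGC
Psmd10, chrX:140956729-140956906 (minus strand): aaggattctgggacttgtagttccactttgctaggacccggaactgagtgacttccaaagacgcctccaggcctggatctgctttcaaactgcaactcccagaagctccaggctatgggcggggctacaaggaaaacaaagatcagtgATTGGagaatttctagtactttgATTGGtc
Psmd14, chr2:61711444-61711693 (plus strand): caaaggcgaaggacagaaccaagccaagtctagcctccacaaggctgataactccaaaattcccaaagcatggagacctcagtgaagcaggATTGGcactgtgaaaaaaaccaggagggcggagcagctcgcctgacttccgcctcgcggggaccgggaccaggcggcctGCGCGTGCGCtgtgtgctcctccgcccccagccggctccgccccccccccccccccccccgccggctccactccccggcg
The antioxidant response element lay at -47 to -39 of the start in Psmb5 and at -9 to -1 in Psmb6. Counted by gene, in any of its promoters, it was in 5 of 36 constitutive proteasome genes (13.9%), beside 11.5% of the 27025 genes in the table. The 5 were Psmb5, Psmb6, Psmc6, Psmd9 and Psmd12. The CCAAT box was in 12 of 36 (33.3%) beside 37.5% of all, and it was found at -47 to -43 and -24 to -20 in Psmd10. The nuclear respiratory factor 1 site was in 6 of 36 (16.7%), namely Psma2, Psma3, Psma4, Psmc4, Psmc5 and Psmd14, beside 4.2% of all. An interferon-stimulated response element (a pair of GAAA with any 2 bases between them) was in 3 of 36 (8.3%) beside 3.5% of all, and in none of the 3 immune subunits. A gamma-activated sequence (TTCNNNGAA) was in the Psmb8 promoter, in 1 of 36 constitutive genes (Psmg1, 2.8%) and in 8.1% of all. No 2 of these motifs overlapped within the 4 printed promoters. The background is all genes in the promoter table, whatever their level here, and was not matched for base composition. These matches describe letters in the window and are not measured binding.

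No proteasome gene was called against the controls in either genotype. A gene was called at an adjusted p under 0.05 in limma, with adjustment over all genes tested. Against controls, 0 of 46 proteasome genes were called in knockout, where 0.00656% of 15234 genes were called, and 0 of 46 in D489V, where 0.0587% of 15339 were called. At an unadjusted p under 0.05 there were 3 in knockout (Psmd10 higher, Psmf1 and Psme1 lower), beside 15.1% of all genes (7.65% higher and 7.42% lower), and 0 in D489V, beside 9.43%. Knockout and D489V, compared directly, differed in 5 of 46 (10.9%): Psmd10, Psmd14, Psmd1 and Psme4 were higher in knockout and Psme1 was lower. In that comparison 20.8% of 15299 genes were called, so the share of proteasome genes was below the background. At an unadjusted p under 0.05 it was 8 higher and 3 lower, beside 37.7% of all genes (19.4% higher and 18.3% lower). The 3 comparisons share samples, so that the same libraries enter several of the values below.

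The 46 genes had no common direction that held across scalings. In knockout against control, 31 had a positive and 15 a negative log2 difference, with a median of 0.06 beside 0.01 over all genes, but the split was 23 to 23 after upper-quartile rescaling and 17 to 29 after quantile normalization. In knockout against D489V it was 27 to 19, with a median of 0.02 beside 0.00 over all genes, and it turned to 19 to 27 and 18 to 28 under those scalings. In D489V against control it was 24 to 22, and 24 to 22 and 25 to 21. Across the 46 genes, the log2 difference was correlated (Spearman) with the length of the longest transcript. The correlation was 0.33 in knockout against control, -0.34 in D489V against control and 0.34 in knockout against D489V. Over the 13415, 13460 and 13441 protein-coding genes tested, the correlations were 0.1, -0.12 and 0.14. These are across genes of shared libraries, with no test, and the part of length in the differences was not tested.

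**Figure D2:**
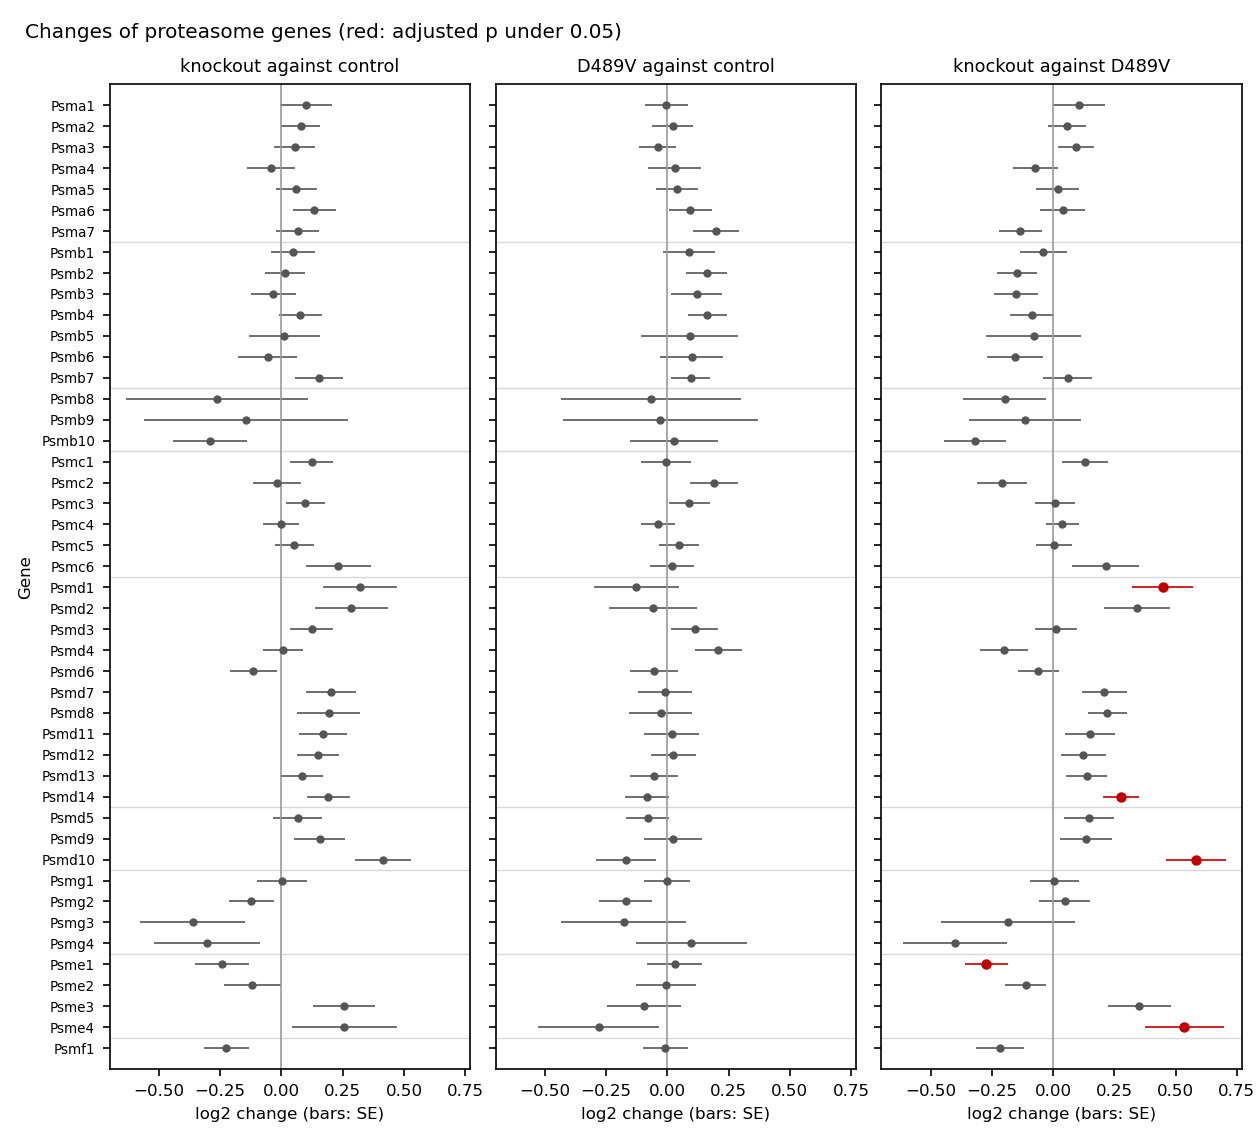
Log2 difference (points) with its standard error (bars) of each proteasome gene in the 3 comparisons, with genes called at an adjusted p under 0.05 in red. There are no red points against controls, and 5 in knockout against D489V (Psmd1, Psmd14, Psmd10 and Psme4 to the right, Psme1 to the left).

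Among the assembly chaperones, Psmd10 (gankyrin, which binds an ATPase while the regulatory particle is built) stood out. It lies on the X chromosome (GRCm38, 140948429 to 140956728, minus strand) and its promoter is printed above. Its normalized counts were 256, 292, 319, 344 and 297 in controls, 390, 385, 349, 414 and 476 in knockout and 245, 262, 226, 297 and 316 in D489V. All knockout samples lay above all samples of the other groups, while controls and D489V overlapped. The log2 difference was 0.58 (SE 0.12, adjusted p = 0.009569) in knockout against D489V, a fold of 1.5 on the log2(value + 1) scale. It was 0.42 (SE 0.12, adjusted p = 0.2795) in knockout against control and -0.17 (SE 0.12, adjusted p = 0.7019) in D489V against control. The other chaperones of the regulatory particle, Psmd5 and Psmd9, had differences of 0.15 and 0.13 in knockout against D489V and were not called. None of the 4 chaperones of the core was called in any comparison, and in knockout against D489V they ran from -0.40 (Psmg4) to 0.05 (Psmg2).

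Of the 11 non-ATPase subunits of the regulatory particle, 2 were called in knockout against D489V, both higher. This stands beside 20.8% of all genes called (10.5% higher and 10.3% lower). Psmd14, the enzyme that cuts the ubiquitin chain off the substrate (chromosome 2, 61711694 to 61800376, plus strand), was at 1435, 1727, 1504, 1810 and 1794 in controls, at 1844, 1826, 1848, 1852 and 2041 in knockout and at 1703, 1446, 1503, 1576 and 1549 in D489V. The knockout samples lay above all others, the lowest of them (1826) next to the highest control (1810). Its log2 difference was 0.28 (SE 0.07, adjusted p = 0.02318) against D489V and 0.19 (SE 0.09, adjusted p = 0.332) against control. The adjusted p against D489V was 0.09691 after quantile normalization and 0.06579 without D489V 2.

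Psmd1, a large scaffold subunit on which ubiquitin receptors dock (chromosome 1, 86064387 to 86139151, plus strand), was at 2439, 3107, 4299, 4240 and 3732 in controls, at 4555, 3823, 4774, 4097 and 4588 in knockout and at 3095, 2807, 2558, 3739 and 3991 in D489V. Knockout and D489V overlapped in D489V 5, and the controls reached from below the lowest D489V sample into the knockout range. The log2 difference was 0.45 (SE 0.12, adjusted p = 0.02804) against D489V and 0.32 (SE 0.15, adjusted p = 0.338) against control. Without any of knockouts 1, 3 and 5 or of D489V 1, 2 and 3, its adjusted p against D489V lay between 0.05312 and 0.07428. Psmd2, the partner scaffold, differed from D489V by 0.34 and missed the threshold (adjusted p = 0.08566). Psmd8, a subunit of the lid, was at 3168 to 3795 in knockout and 2619 to 3160 in D489V. Its groups did not overlap, but its difference of 0.22 was not called (adjusted p = 0.06832). In all, 9 of the 11 non-ATPase subunits had a positive difference in knockout against D489V, and 8 after either rescaling.

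Where groups did not overlap, the counts were 3 proteasome genes in knockout against control (Psmd10 and Psmd14 higher, Psmf1 lower) beside 2.24% of all genes (0.991% higher and 1.25% lower), 0 in D489V against control beside 2.16%, and 3 in knockout against D489V (Psmd10, Psmd14 and Psmd8, all higher) beside 13.9% (7.22% higher). The 6 ATPases had no call in any comparison. In knockout against D489V their differences ran from -0.21 (Psmc2) to 0.21 (Psmc6), with 5 positive, but 2 positive after either rescaling, and 1 was called lower after quantile normalization.

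Endothelial, adipocyte and Schwann cell markers also differed between knockout and D489V, and their part in the 5 called genes was not tested. The sum of 5 endothelial markers was 6761 to 10523 in knockout and 12427 to 14231 in D489V, and all 5 were called lower. That of 4 adipocyte markers was 1672 to 3466 against 3591 to 13415, with 3 called lower. That of 4 Schwann cell markers was 3976 to 6435 in knockout, with 4 called lower. In D489V it was 35681 in replicate 3 and 8468 to 10476 in the others. These calls of markers stand beside 10.3% of all genes called lower. In controls the sums were 11167 to 15766 (endothelial), 589 to 7782 (adipocyte) and 5605 to 9638 (Schwann cell). Without the 4 libraries high in lymphocyte markers, knockouts 1 and 2 were left against 5 D489V samples. In that fit 0 of the 46 genes were called, and calls over all genes fell from 3181 to 586. The difference of Psmd10 was 0.54 (adjusted p = 0.0813). With the lymphocyte marker sum as a covariate, 2 of the 46 were called, Psmd10 and Psme4, beside 2189 over all genes.

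**Figure D3:**
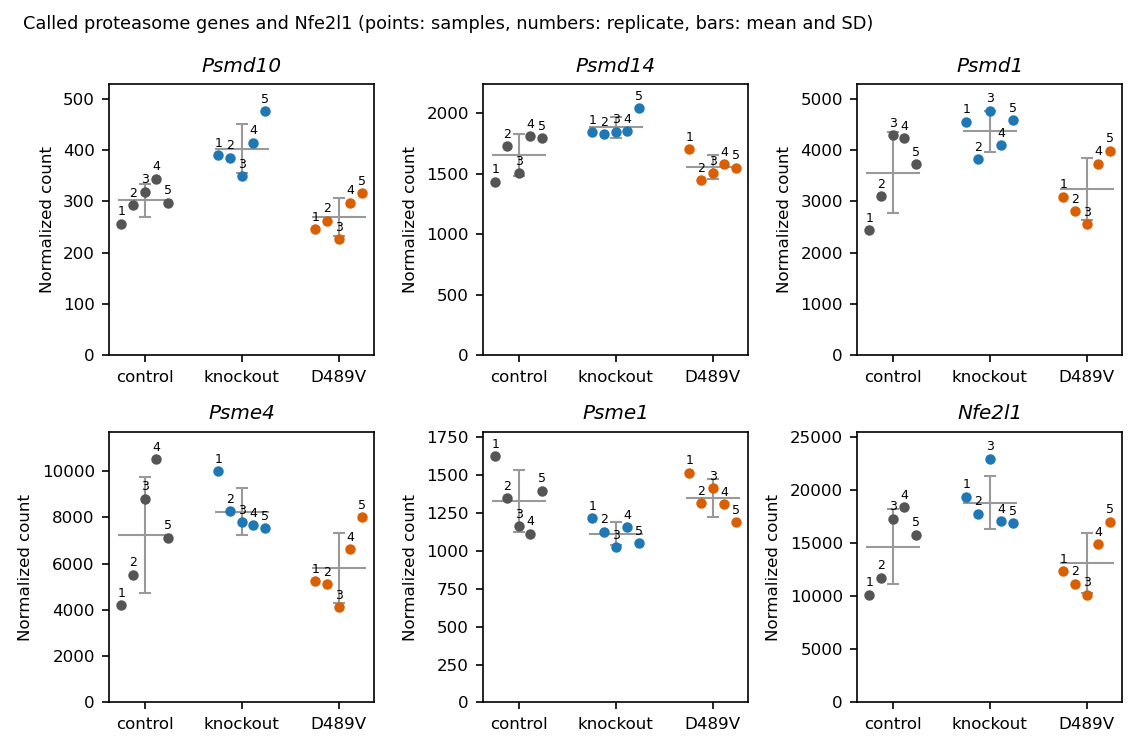
Normalized counts of the 5 called proteasome genes and of Nfe2l1 in each sample (points numbered by replicate), with group means and SDs as bars. Knockout samples of Psmd10 and Psmd14 lie above all others, while the controls of Psme4 run from 4190 to 10505 and take in all samples of the other groups but D489V 3 (4100).

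The activators differed among themselves. They cap the core in place of the regulatory particle: Psme1 and Psme2 form an interferon-inducible cap, Psme3 a nuclear one, and Psme4 (PA200) a large single-chain cap. Psme4 (chromosome 11, 30771726 to 30880361, plus strand) was at 4190, 5511, 8806, 10505 and 7119 in controls, at 9998, 8261, 7779, 7656 and 7532 in knockout and at 5239, 5094, 4100, 6611 and 7993 in D489V. The controls alone spanned the knockout range and all D489V samples but D489V 3, the lowest of all. Psme4 was higher in knockout than in D489V by 0.54 (SE 0.16, adjusted p = 0.03507), and differed from control by 0.26 in knockout (adjusted p = 0.5516) and by -0.28 in D489V (adjusted p = 0.7633). The call against D489V was lost on leaving out any of the 5 knockouts or D489V 1, 2 or 3 (adjusted p 0.05084 to 0.08538). Psme3 was at 1254, 1460, 1818, 1925 and 1764 in controls, at 1999, 1699, 2264, 1954 and 1827 in knockout and at 1348, 1544, 1185, 1793 and 1831 in D489V. Its difference of 0.35 between knockout and D489V was not called (adjusted p = 0.06673), and its groups overlapped.

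Psme1 (chromosome 14, 55578123 to 55581529, plus strand) went the other way. It was at 1623, 1346, 1163, 1113 and 1396 in controls, at 1216, 1126, 1023, 1155 and 1050 in knockout and at 1516, 1312, 1414, 1307 and 1190 in D489V. Knockout and D489V overlapped in knockout 1 and D489V 5, and the difference was -0.27 (SE 0.09, adjusted p = 0.04332). The call held without knockout 1 or D489V 5 and was lost on leaving out any other of the 10 samples (adjusted p 0.05043 to 0.1104). The difference was -0.24 in knockout against control (adjusted p = 0.3262) and 0.03 in D489V against control (adjusted p = 0.9533, 95% interval -0.22 to 0.28). Psme2, its partner in the cap, was at 1288, 1191, 993, 813 and 1101 in controls, at 997, 997, 919, 960 and 1032 in knockout and at 1193, 1081, 1104, 974 and 965 in D489V. Its difference in knockout against D489V was -0.11 (95% interval -0.29 to 0.07) and was not called (adjusted p = 0.3352).

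Psmf1 (PI31), named for its inhibition of the core in vitro, lies on chromosome 2. It was at 534, 512, 497 and 570 in controls 1, 3, 4 and 5, with control 2 just under control 4 (mean 520 ± 32.6, SD, n = 5), at 447, 466, 474, 457 and 385 in knockout and at 512, 586, 457, 546 and 493 in D489V. All knockouts lay below all controls, with a log2 difference of -0.22 (SE 0.09) that did not pass the correction (adjusted p = 0.3117). Against D489V it was -0.22 as well (adjusted p = 0.1237), and the groups overlapped.

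In the core, none of the constitutive catalytic subunits was called, and their groups overlapped in all 3 comparisons. Psmb5, the chymotrypsin-like site, was at 1084, 1094, 1045, 1479 and 1481 in controls, at 1505, 1396, 1242, 986 and 1099 in knockout and at 1889, 1203, 1523, 828 and 1301 in D489V, where D489V 1 and 4 were the highest and lowest of all samples. Its log2 difference was 0.01 (95% interval -0.31 to 0.33) in knockout against control and 0.09 (-0.34 to 0.52) in D489V against control. Psmb6, the caspase-like site, was at 5220, 4513, 3641, 3909 and 3698 in controls, at 4133, 4041, 3663, 3500 and 4755 in knockout and at 5149, 4749, 4923, 3710 and 3912 in D489V. Its differences were -0.06 (-0.32 to 0.21) and 0.10 (-0.18 to 0.38).

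Psmb7, the trypsin-like site, was at 6615, 7085, 6289, 6699 and 6457 in controls, at 7666, 7016, 6836, 6552 and 9019 in knockout and at 8026, 7121, 6541, 6601 and 7175 in D489V. The differences were 0.15 (-0.06 to 0.37) and 0.09 (-0.08 to 0.27), and knockout 5 was the highest of all samples. None of the 7 constitutive beta subunits was called in any comparison. In D489V against control all 7 had a positive difference, from 0.09 (Psmb1) to 0.16 (Psmb4), under each scaling run. In knockout against D489V 6 of 7 were negative, and 7 of 7 after quantile normalization. The 7 alpha subunits, which form the gate, had no call either, and their differences in knockout against D489V ran from -0.13 (Psma7) to 0.11 (Psma1).

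**Figure D4:**
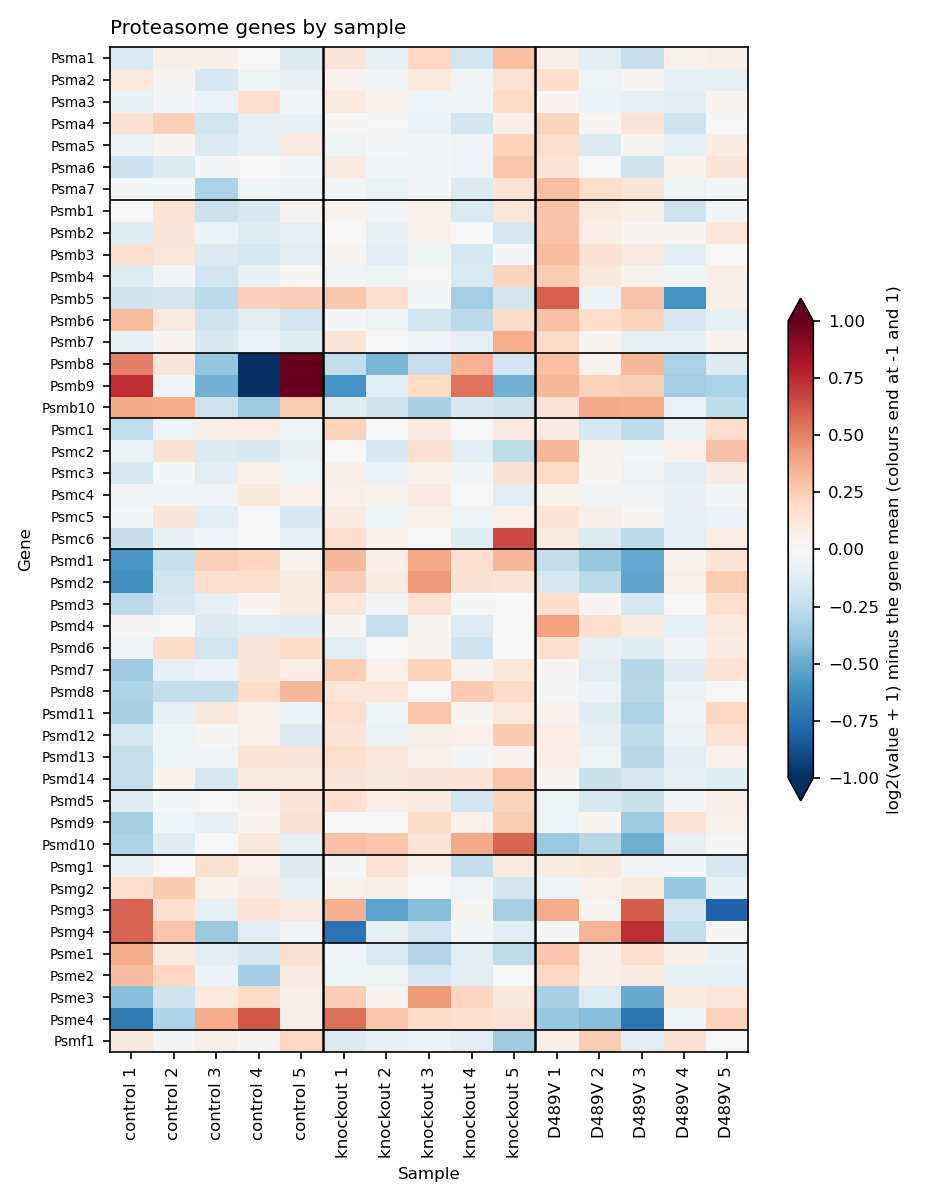
Log2(normalized count + 1) of each of the 46 proteasome genes in each sample, minus the mean of the gene over the 15 samples, with colours ending at -1 and 1. The immune subunits Psmb8 and Psmb9 reach the ends of the scale within the controls, and control 1 and D489V 3 are low for Psmd1, Psmd2, Psme3 and Psme4.

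Samples differed in ways that crossed the groups. Of the 43 constitutive genes, 12 had their highest value in D489V 1 and 11 in knockout 5, and 10 had their lowest in D489V 3 and 9 in control 1. The median deviation of the 43 genes from their own means was 0.12 in knockout 5 and 0.09 in D489V 1, and -0.13 in control 1 and -0.08 in D489V 3, on the log2 scale.

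The immune subunits varied most within the controls. Psmb8 (chromosome 17, 34197721 to 34201454, plus strand) was at 450, 348, 242, 149 and 835 in controls, at 268, 231, 271, 405 and 278 in knockout and at 392, 326, 400, 255 and 289 in D489V. Psmb9 was at 230, 134, 98, 58 and 336 in controls, at 91, 127, 158, 200 and 98 in knockout and at 173, 161, 162, 108 and 110 in D489V. For both genes control 4 was the lowest and control 5 the highest of all 15 samples. Psmb9 overlaps Tap1, which shares 212 bases with it on the other strand and had a mean of 325 against 150 for Psmb9. Whether the authors' counting used the strand is not given in the sources used here, so Psmb9 values are uncertain.

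Psmb10 was at 562, 559, 375, 336 and 516 in controls, at 398, 375, 345, 386 and 375 in knockout and at 477, 562, 558, 415 and 362 in D489V. The knockout samples were narrow and low, within the range of the other groups. None of the 3 was called: in knockout against D489V the differences were -0.20 (Psmb8, adjusted p = 0.4091), -0.12 (Psmb9, adjusted p = 0.7441) and -0.32 (Psmb10, adjusted p = 0.08837). The immune share of the 6 catalytic subunits, from levels per kb, ran from 4.32% in control 4 to 10.4% in control 5, with group means of 7.30% ± 2.29 in controls, 5.75% ± 1.07 in knockout and 6.52% ± 0.839 in D489V (SD, n = 5 each). Control 5 also had the highest lymphocyte marker sum (6962) and control 4 the lowest (77). Among the knockouts, replicate 4 was highest in Psmb8, Psmb9 and that sum (6067). Knockouts 3 and 5, with sums of 2119 and 1550, had Psmb8 at 271 and 278 and Psmb9 at 158 and 98. Knockout 1, with a sum of 90, had Psmb8 at 268 and Psmb9 at 91. The part of lymphocytes in these levels was not tested.

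**Figure D5:**
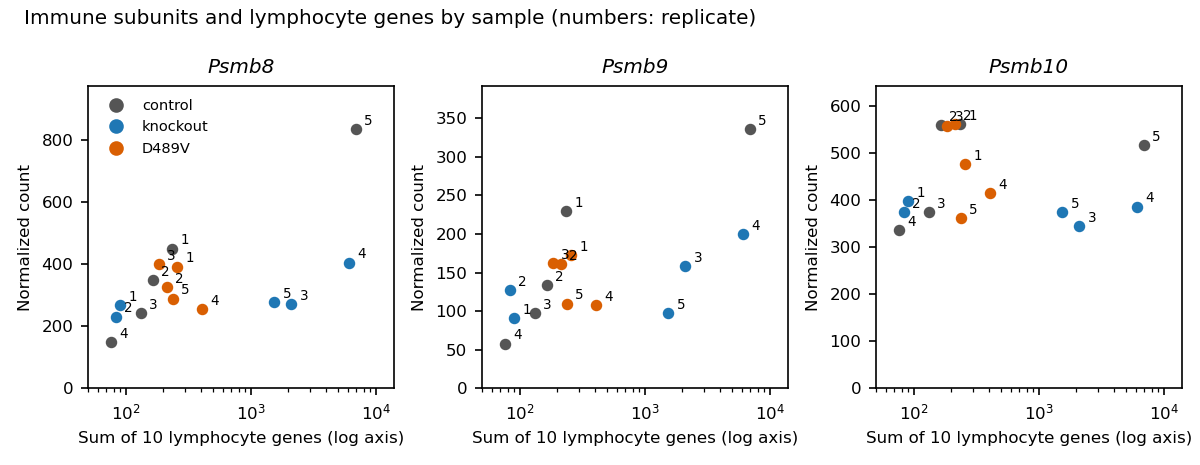
Normalized counts of Psmb8, Psmb9 and Psmb10 in each sample (numbered by replicate) against the sum of 10 lymphocyte marker genes (log axis). Control 5, at a sum of 6962, is the highest for Psmb8 and Psmb9, while Psmb10 of the same sample (516) lies within the other samples.

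Genes that work with the proteasome were called in knockout against D489V, and none of them against controls in either genotype; whether the comparisons differ was not tested. Nfe2l1, the transcription factor that raises proteasome genes when the proteasome is impaired, was at 10134, 11753, 17277, 18392 and 15795 in controls, at 19353, 17748, 22941, 17039 and 16887 in knockout and at 12338, 11158, 10149, 14903 and 17010 in D489V. It was higher in knockout by 0.54 (SE 0.15, adjusted p = 0.02607), with D489V 5 within the knockout range. Ngly1, the enzyme that removes sugars from the Nfe2l1 protein, was also higher, by 0.47 (adjusted p = 0.01325), with 1510 to 1945 in knockout and 1026 to 1439 in D489V. Of the 4 genes in this list, 2 were called higher and 0 lower, or 1 and 1 after quantile normalization. Ddi2, the protease that cleaves Nfe2l1, had a difference of -0.35 (adjusted p = 0.1015).

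Of 11 proteasome partners, 2 were called higher: Ube3c, a ubiquitin ligase on the proteasome, by 0.67 (adjusted p = 0.0222), and Usp14, a deubiquitinase that docks on Psmd2, by 0.28 (adjusted p = 0.04916), with 1 called after either rescaling. Of 8 shuttle and segregase genes, which bring ubiquitinated proteins to the proteasome, 3 were called higher: Nploc4 by 0.47 (adjusted p = 0.03963), Vcp by 0.39 (adjusted p = 0.02612) and Ubqln4 by 0.35 (adjusted p = 0.02607), with 1 called after quantile normalization. For each of these partners and shuttles the controls overlapped both other groups. Controls ran from 940 to 1986 for Ube3c, 1078 to 1448 for Usp14 and 1043 to 2304 for Nploc4. They ran from 14407 to 23217 for Vcp and 1935 to 3401 for Ubqln4. Of 8 genes of class I antigen presentation, H2-K1 (by -0.78, adjusted p = 0.01555) and Tap2 (by -0.53, adjusted p = 0.01666) were called lower, with 3 called after quantile normalization, and of 10 interferon response genes only Irf1 was, by -0.51 (adjusted p = 0.03976). All of these counts stand beside 10.5% of all genes called higher and 10.3% called lower. The lists are proteasome partners, control of proteasome transcription, shuttles, class I presentation and interferon response. Paaf1, on the partner list, was not analysed here.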

How the data were processed

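Poly(A) RNA of skeletal muscle from 15 mice was sequenced from directional libraries (NEBNext Ultra II), per the labels' protocols. Both deposited tables hold a score, namely normalized gene counts in whole numbers, as the table names the authors chose say. The submitters' processing notes list Trim Galore 0.6.0, cutadapt, FastQC, STAR 2.7.0e, DESeq2 1.26.0 and GRCm38 without stating their roles. Each of 2 tables held the controls and 1 other group, and the control columns were identical. Relative to the geometric mean over the 15 samples, the samples had median ratios of 1.0069 to 1.0097, so knockout and D489V were compared directly. Raw counts were not used here, since whole reads could not be recovered from rounded values, so no count test was run and the read depth is unknown.

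All 55536 gene identifiers matched GENCODE M21 (GRCm38), the source of coordinates and exon lengths. Promoters came from RefSeq (GRCm38.p6). Each comparison of 5 against 5 used log2(value + 1), a pseudocount of 1, and a two-sided moderated test from limma 3.58.1 under R 4.3.3, with lmFit and a variance trend in eBayes. A gene entered when 5 of the 10 samples or more reached a value of 10. That scale understates the change of low genes. Adjusted p-values are Benjamini-Hochberg over all genes tested, with calls under 0.05, and intervals are 95% intervals of the limma fit. The labels call the replicates separate samples, and p-values measure the spread between these samples. On simulated data with 200 changed genes, the fit of knockout against D489V recovered 76.3% of those tested with a log2 change of 1 and 92.6% with 2. At a change of 1, knockout against control recovered 72.6% and D489V against control 69.6%. The noise was drawn independently for each gene. Smaller changes, such as those of the proteasome genes, were not simulated.

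The proteasome genes and all lists were chosen with earlier results of these data known. The results of 1 related list are not reported here. The text names the catalytic and immune subunits, activators, inhibitor, the genes with the highest and lowest level per kb, every called member, at most 5 called genes per related list, and Pdgfrb. Others were named after their values were seen. Other genes with a stretch of at least 95% identity over 200 bases were found for 14 of the 46 genes. They reached over 5% of the level of the proteasome gene for Psmb9 (Tap1), Psmd13 (Sirt3), Psma3 (Gm13835) and Psmb7 (Nek6). Gm13835 is a processed pseudogene, while Tap1, Sirt3 and Nek6 are protein-coding genes that matched on the other strand at 100% identity. Since use of the strand in counting is not given, Psmd13 and Psmb7 values are uncertain too. Alternatives changed pseudocount, filter, scaling, variance model, sample weights, samples in the fit, replicate block and gene length, and left out each replicate. The 2 alternatives with lymphocyte markers were chosen after seeing the data. Plots came from matplotlib 3.10.9, and tables from pandas 2.3.3 and numpy 2.4.6 under Python 3.11.15.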

Additional observations from a re-analysis of the deposited data

Results flagged for a closer look

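Over 46 genes in 3 groups of 5, 138 sets of values were checked for a sample far from the other 4 of its group (a gap above 0.71 of the range), and 9 had one, where chance gives about 1 in 20 (6.9). In the controls, Psma3 was high in replicate 4 (5022, others 4260 to 4416), Psmb2 in replicate 2 (1389, others 1161 to 1222) and Psmc2 in replicate 2 (4690, others 3789 to 4024), and Psma7 was low in replicate 3 (2156, others 2589 to 2669). In knockout, replicate 5 was high for Psma5 (2468, others 2046 to 2092) and Psmd14 (2041, others 1826 to 1852) and low for Psmf1 (385, others 447 to 474), and replicate 1 was low for Psmg4 (43, others 63 to 71). In D489V, Psmd8 was low in replicate 3 (2619, others 3042 to 3160). Without knockout replicate 5, Psmd14 differed from D489V by 0.25 (limma adjusted p = 0.04691).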

How the results depend on the processing

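Precision was limited by 5 samples a group. Against controls, no proteasome gene was called in knockout or D489V under any of the 23 alternatives, which does not show that none differed. In knockout against D489V, 5 proteasome genes were called, against 2 with no filter on low values, 3 with no variance trend, 10 with array weights, 2 with all 15 samples in 1 fit, 2 with the lymphocyte covariate, 0 in libraries with under 1000 lymphocyte marker counts, and 1 (without D489V replicate 2) to 8 (without D489V replicate 5) with a replicate left out. Psmd10 passed under 22 of 23 alternatives (adjusted p 0.003726 to 0.0813), Psmd14 under 17 (0.01204 to 0.1678), Psmd1 under 14 (0.01175 to 0.1975), Psme4 under 10 (0.01152 to 0.1071) and Psme1 under 9 (0.02713 to 0.2923), and all kept their direction. Where fewer genes or samples were not the change made, the cause was not tested. Replicate numbers did not pair the samples (correlations of -0.21 to 0.24, -0.4 to 0.39 and -0.11 to 0.1 in the 3 comparisons). With the replicate block, 2 proteasome genes were called in knockout against D489V, Psmd10 and Psmd1, and 2208 genes in all.

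Over all genes, knockout against control gave 1 call, against 3 with upper-quartile rescaling, quantile normalization or the libraries low in lymphocyte markers, 16 with all 15 samples in 1 fit, and 1 to 7 with a replicate left out, the most without knockout replicate 2. D489V against control gave 9, against 19 with pseudocount 5, 86 with array weights, 4 when only genes with a mean of 50 or more were tested, 21 with robust eBayes, 16 with quantile normalization, 23 with upper-quartile rescaling, 1 with all 15 samples in 1 fit, and 2 to 26 with a replicate left out, the most without D489V replicate 3. Knockout against D489V gave 3181, against 586 in the libraries low in lymphocyte markers and 1398 (without D489V replicate 1) to 3686 with a replicate left out. The same comparison gave 2329 with no filter on low values, 2526 with no variance trend and 4458 with array weights. With all 15 samples in 1 fit it gave 2359, and with the lymphocyte covariate 2189.

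Of 966 values of 14 named genes under alternatives, 865 stayed on the same side of the threshold with the same sign, 43 were no longer called, 6 became called and 52 changed sign, all of genes not called in either fit. With a scaling, weights or lymphocyte alternative the changed signs were, in knockout against control, Psmb5 -0.0502 (upper-quartile) and -0.0679 (quantile). In D489V against control they were Psmb9 0.0870 and Psmf1 0.0646 (array weights), Psmb8 0.0244, Psmb9 0.0606, Psme2 0.00285 and Psmf1 0.0025 (lymphocyte covariate), and Psmb8 0.255, Psmb9 0.279, Psme2 0.00691 and Psmf1 0.0259 (libraries low in lymphocyte markers). In knockout against D489V they were Psmb7 -0.0595 (quantile), and Psmb5 0.0580 (lymphocyte covariate) and 0.156 (libraries low in lymphocyte markers). With a replicate left out, the log2 difference in knockout against control ran from -0.0606 to 0.0918 for Psmb5, -0.120 to 0.0254 for Psmb6, -0.563 to 0.0569 for Psmb8 and -0.465 to 0.163 for Psmb9. In D489V against control it ran from -0.0429 to 0.254 for Psmb5, -0.364 to 0.255 for Psmb8, -0.350 to 0.279 for Psmb9, -0.0850 to 0.12 for Psmb10, -0.0308 to 0.105 for Psme1, -0.102 to 0.0634 for Psme2 and -0.0526 to 0.0369 for Psmf1. In knockout against D489V it ran from -0.243 to 0.0546 for Psmb5, -0.0138 to 0.105 for Psmb7 and -0.272 to 0.0095 for Psmb9.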
